A study of Rattus norvegicus with 9 samples.

Results

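The genes that encode the proteins of the cytosolic ribosome were followed in rat hippocampus. Members were chosen by name: every gene whose symbol is Rpl or Rps with a number (with an optional a, x, y or l and a further number), together with Rplp0, Rplp1, Rplp2, Rpsa and Fau. The Rps6k kinases and names ending in -ps and a number were left out. The rule matched 94 gene IDs. Of 6 names carried by a pair of IDs (Rpl21, Rpl22, Rpl30, Rpl35a, Rps13 and Rps6), the ID with more counts was kept, which left 88 members of 30562 genes in the table. Of these, 70 had enough counts to be tested, out of 7073 genes tested in all.

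Poly(A) RNA was sequenced from the hippocampal region of male Sprague-Dawley rats, an outbred strain, that were 6 to 8 weeks old at the start. The 3 groups had 3 libraries each. Ctrl rats were the normal controls. Model rats had a high-fat diet for 4 weeks, then streptozotocin, which kills pancreatic beta cells, injected once into the peritoneum at 50 mg/kg. Rats whose fasting glucose stayed at 16.7 mmol/L or above were taken as diabetic and went through 5 weeks of chronic unpredictable mild stress. ChryM rats had chrysophanol, a plant anthraquinone, by gavage for 14 days. That ChryM rats had also gone through the diabetes and stress protocol follows from the series title, and neither the dose nor what the M stands for is given. The labels do not say that the libraries of a group came from separate animals, so the p-values measure only how far these libraries spread, and that spread may be technical. The comparison of Model with Ctrl asks what the diabetes and stress protocol changed, and that of ChryM with Model how such rats differed after chrysophanol gavage. The labels give a gavage for ChryM rats only, so chrysophanol cannot be told apart from the gavage itself.

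A ribosome has a small 40S subunit, which decodes the mRNA, and a large 60S subunit, which joins amino acids and passes the new chain through an exit tunnel. Each subunit is built from ribosomal RNA and many small proteins, most of them present once per particle, and neurons use ribosomes in the cell body and in dendrites, where local translation serves synapses. The mRNAs of ribosomal proteins are known for a run of pyrimidines that starts with a C at the cap, the 5′ terminal oligopyrimidine (TOP) tract. Through it their translation follows the kinase complex mTORC1 and the binding protein LARP1.

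The start sites show this feature in part, and they are printed because the genes were otherwise grouped by name alone. In RefSeq's promoter windows of the rat assembly GRCr8, a start was said to have a tract if its first base was C and at least 4 further bases without a break were each C or T, read on the gene's strand. Of 66 members with a window, 22 had a tract (33.3%), against 722 of 27457 windows of all genes (2.63%). The tract was present in 20 of the 56 tested members with a window and in 139 of the other 5311 tested genes (2.62%). The windows below hold 15 bases before and 15 bases from the annotated start, with the tract in capitals. The first 7 belong to members with a tract that rose in at least 1 comparison, and the 2 after them to members with a tract and no call. Of the 20 tested members with a tract, 7 had no call in any comparison.
Rpl19 at chr10:83519049-83519078, plus strand: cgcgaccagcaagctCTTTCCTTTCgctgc
Rpl31 at chr9:49143096-49143125, plus strand: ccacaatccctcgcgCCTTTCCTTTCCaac
Rpl37 at chr2:55942930-55942959, plus strand: tggtaggcgtactttCTCTTCCggtctctt
Rpl35 at chr3:43165907-43165936, minus strand: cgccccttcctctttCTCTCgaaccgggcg
Rplp1 at chr8:71290858-71290887, minus strand: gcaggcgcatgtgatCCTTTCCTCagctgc
Rps15 at chr7:10068101-10068130, minus strand: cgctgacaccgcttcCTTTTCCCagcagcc
Rps7 at chr6:50999431-50999460, minus strand: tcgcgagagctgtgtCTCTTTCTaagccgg
Rpl10 at chrX:157205835-157205864, plus strand: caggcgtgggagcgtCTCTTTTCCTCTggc
Rpl22 at chr5:168117946-168117975, plus strand: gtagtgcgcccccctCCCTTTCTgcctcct
The next 4 belong to the members with the smallest p between ChryM and Model, and none has a tract at the annotated start.
Rpl21 at chr12:13386139-13386168, minus strand: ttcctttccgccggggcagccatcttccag
Rpl12 at chr3:36661925-36661954, plus strand: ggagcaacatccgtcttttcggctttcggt
Rps19 at chr1:89608673-89608702, plus strand: cccgacttgtgcgcccgggaaaccccgtcg
Rps23 at chr2:23814502-23814531, plus strand: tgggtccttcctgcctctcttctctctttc
In Rps23 the start lies inside a long pyrimidine run but begins with T, and in Rpl21 a pyrimidine run lies upstream of it. A window without a tract says only that these letters are not at the annotated base. The build of the deposited counts is not given in the sources used here, so these positions belong to the RefSeq windows and not to the counted reads.

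Most members were abundant. Per length, as the mean of the deposited FPKM over the 9 libraries, the tested members had a median of 124 FPKM (range 5.60 to 814), against 9.97 over all tested genes. Of the 70, 68 lay above that overall median and 56 lay among the 10% of genes with the highest levels. The highest were Rpl19 (814 FPKM), which lies at the exit side of the 60S subunit, Rps15 (720), of the 40S head, Rps23 (716), next to the decoding centre, Rpl32 (566) and Rpl26 (465). The lowest were Rpl7l1 (5.60), a relative of Rpl7 that acts in ribosome assembly, the paralog Rpl22l1 (8.90), Rpl22 itself (11.1), Rps13 (21.3) and Rpl35a (23.1).

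Not every ribosomal protein is represented by its own ID. Of 79 standard protein names of the mammalian ribosome, 71 are members, and 65 of those were tested. Rps20, Rpl38 and Rpl39 had 0 counts in all 9 libraries, Rpl9 had 1 count in total, Rpl8 had 31 and Fau, which makes Rps30 fused to a ubiquitin-like protein, had 48. IDs with a -ps form of these names did hold counts: Rpl9-ps30 held 1192 counts, Rpl8-ps7 held 982, Rps20-ps10 held 868, Rpl38-ps9 held 797 and Rpl39-ps13 held 266. Names of this form are used for processed copies, and how reads that match several near-identical copies were counted is not given in the sources used here. For all members, a level or a change may therefore include or lack reads of a copy. The other 8 standard names, such as Rps18, Rps26 and Rpl7, are not analysed here. The other 17 members are paralogs or like-named genes, of which 5 were tested (Rps10l1, Rps18l1, Rpl22l1, Rpl7l1 and Rpl30l2). In all, 7 members had 0 counts in every library, and the other 11 untested members had 1 to 48 counts in total.

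Libraries were shallow, with 631119 to 866048 counts each and 13343 to 14256 genes detected, so a library held 75 to 78 members with at least 1 count. Some other tissue markers differed strongly between groups. Summed markers of the choroid plexus ran from 1736 to 1801 CPM (counts scaled to the library's total) in Ctrl, from 33.27 to 44 in Model and from 72.74 to 85.72 in ChryM. Meningeal and blood markers were also highest in Ctrl, at 153.6 to 170.5 and 336.3 to 364.1 CPM, against 19.01 to 25.88 and 68.14 to 106.5 CPM over the Model and ChryM libraries. Summed neuronal markers were present in every library, at 2494 to 3104 CPM.

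Summed over the 88 members, ribosomal protein mRNA stood at one level in Ctrl and Model and at a higher level in ChryM. The sums were 12366, 12660 and 11557 CPM in Ctrl 1 to 3 (mean 12194 ± 571, SD, n = 3) and 12436, 12102 and 12528 CPM in Model 1 to 3 (12355 ± 224, SD, n = 3). They were 16036, 16253 and 15402 CPM in ChryM 1 to 3 (15897 ± 442, SD, n = 3). Every ChryM library lay above all 6 others, whereas the Ctrl and Model libraries overlapped. The mean log2 CPM of the tested members, in which each gene weighs the same, was 7.05 ± 0.04 in Ctrl, 7.15 ± 0.018 in Model and 7.46 ± 0.031 in ChryM (SD, n = 3 each). On that scale, which uses TMM scaling, the 3 Model libraries (7.13 to 7.16) lay just above the 3 Ctrl libraries (7.02 to 7.10). In tissue RNA, more cells of a type and more RNA per cell cannot be told apart.

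**Figure D1:**
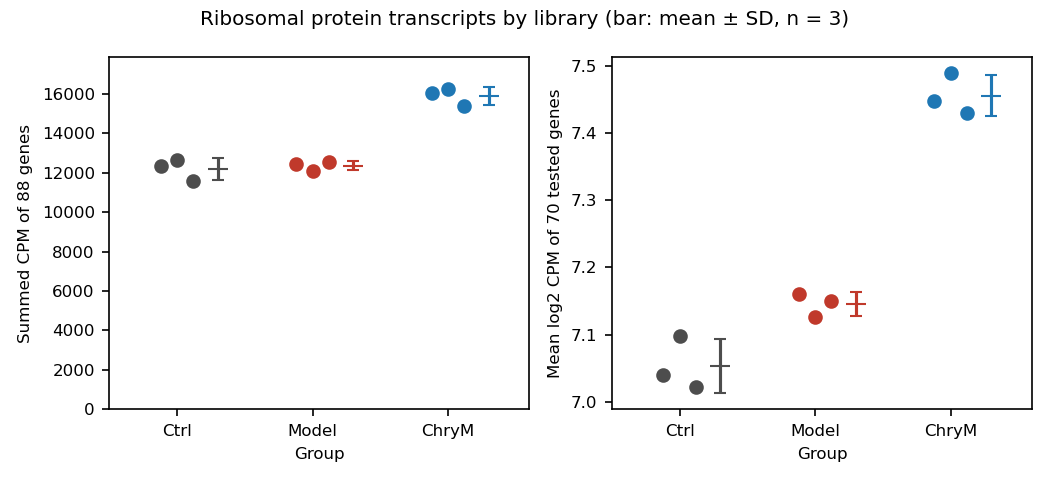
Summed CPM of the 88 members (left) and mean log2 CPM of the 70 tested members (right) in each library, by group; points are libraries, bars are group means with SD (n = 3), and the left axis starts at 0. The ChryM libraries lie between 15402 and 16253 summed CPM, above the range of 11557 to 12660 that the Ctrl and Model libraries share.

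Between ChryM and Model, 32 of the 70 tested members rose and none fell at an adjusted p under 0.05 (edgeR quasi-likelihood test, Benjamini-Hochberg adjustment over all tested genes). That is 45.7% of the tested members, against 3.86% of all tested genes that rose, 4.41% that fell and 8.27% that did either. Nearly all members stood at higher levels than most tested genes, and genes of like level were not set apart for this share or those below. At an unadjusted p under 0.05, 46 members were higher and 0 lower. The median log2 fold change of the members was 0.32 (a 1.247-fold difference), 68 of 70 were above 0, and their range was -0.17 to 0.82. The median over all tested genes was 0.00146. All 3 ChryM libraries lay above all 3 Model libraries for 43 members (61.4%), against 11.8% of all tested genes, and for no member did they all lie below. The count moved with the filter and with single libraries. Of the 32 calls, 8 held under all 19 alternatives, among them Rpl21, Rpl12, Rps19, Rps23, Rps12, Rpl26 and Rpl5, and each of the other 24 lost its call under at least 1. Without the count filter, which brought 81 members into the test, edgeR called 21 and DESeq2, which changes the test as well, called 14. Leaving out Model 2, Model 3, ChryM 1 or ChryM 2 left 15, 20, 21 and 21 members, none of them lower.

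**Figure D2:**
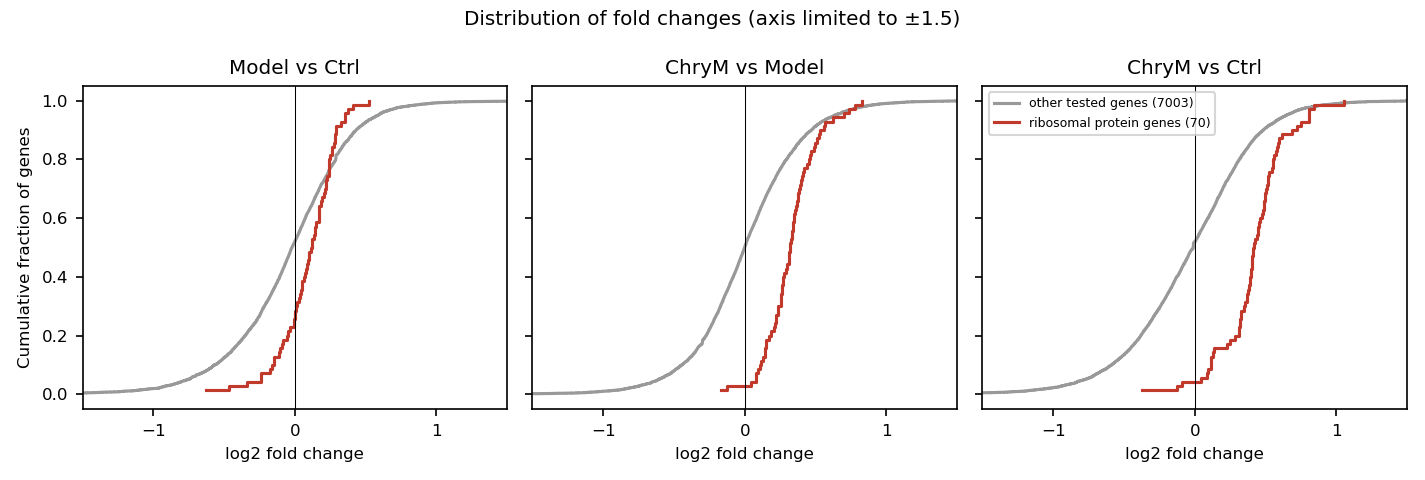
Cumulative fraction of genes (vertical axis) against log2 fold change for the 70 tested members (red) and the other tested genes (grey) in each comparison, with the horizontal axis limited to 1.5 on either side of 0. At its median the red curve lies right of the grey one, least in Model vs Ctrl (median of the members 0.12), more in ChryM vs Model (0.32) and most in ChryM vs Ctrl (0.42), and in Model vs Ctrl the curves cross above 0.

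The rises with the smallest p fell on both subunits. Rpl21 (ENSRNOG00000000957), a 60S protein, stood at 215, 219 and 192 CPM in Model and 369, 346 and 356 CPM in ChryM, with Ctrl at 208, 223 and 174 CPM. Its ChryM libraries lay above all others, and the log2 fold change of ChryM vs Model was 0.78 ± 0.10 (SE; adjusted p = 4.93e-11). Rpl12 (ENSRNOG00000016220), of the GTPase-associated centre beside the 60S stalk, stood at 141, 129 and 134 CPM in Model and 229, 217 and 211 in ChryM (0.70 ± 0.11, adjusted p = 5.8e-07). Its Model libraries also lay below Ctrl (163, 151 and 160 CPM), but that difference did not pass (log2 fold change -0.24, adjusted p = 0.215). Rps19 (ENSRNOG00000037897), of the 40S head and the gene first linked to Diamond-Blackfan anaemia, stood at 149, 172 and 176 CPM in Ctrl, 190, 194 and 198 in Model and 282, 302 and 313 in ChryM. The 3 groups did not overlap, and ChryM vs Model gave 0.62 ± 0.10 (adjusted p = 5.8e-07).

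In the 40S head, 7 of 12 tested members rose between Model and ChryM (median log2 fold change 0.37). Rps12 stood at 125, 124 and 119 CPM in Model and at 160, 190 and 192 in ChryM, so the groups did not overlap (0.56 ± 0.12, adjusted p = 0.000437). Rps27a, made as a fusion with ubiquitin, stood at 58.5, 87.9 and 110 CPM in Model and 117, 125 and 111 in ChryM (0.45 ± 0.15, adjusted p = 0.0339). Its ChryM libraries lay just above the highest Model library, and without Model 1 the call was lost (adjusted p = 0.43). Rps3, which lines the mRNA entry channel, did not pass, at 166, 158 and 151 CPM in Model and 155, 186 and 181 in ChryM (0.14, adjusted p = 0.546). The other 4 that rose were Rps29 (0.38), Rps16 (0.36), Rps25 (0.35) and Rps15 (0.29), and of the 5 that did not pass Rps10 was highest, at 0.56.

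Of the 40S body and platform, 9 of 16 tested members rose (median 0.38). Rps23 stood at 489, 401 and 480 CPM in Model and 639, 640 and 619 in ChryM (0.47 ± 0.08, adjusted p = 4.36e-06). Rpsa, also known as the laminin receptor precursor, stood at 228, 230 and 191 CPM in Model and 277, 288 and 291 in ChryM (0.41 ± 0.10, adjusted p = 0.00256, and 0.0822 without Model 3). In both genes every ChryM library was above every Model library. Rps6, whose phosphorylation by S6 kinases is a common readout of mTORC1, stood at 195, 191 and 188 CPM in Model and 244, 259 and 226 in ChryM (0.35 ± 0.11, adjusted p = 0.0193). Its call was lost without ChryM 2 (adjusted p = 0.136). Others that rose were Rps4x, Rps15a (0.44), Rps7 (0.37), Rps3a (0.36) and Rps14 (0.32), and of these Rps14 alone had overlapping groups, at 204 to 225 CPM in Model and 223 to 301 in ChryM. Rps2 was the exception in spread, with 148, 83.6 and 26.9 CPM within ChryM and no call (0.74 ± 0.66, adjusted p = 0.638).

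**Figure D3:**
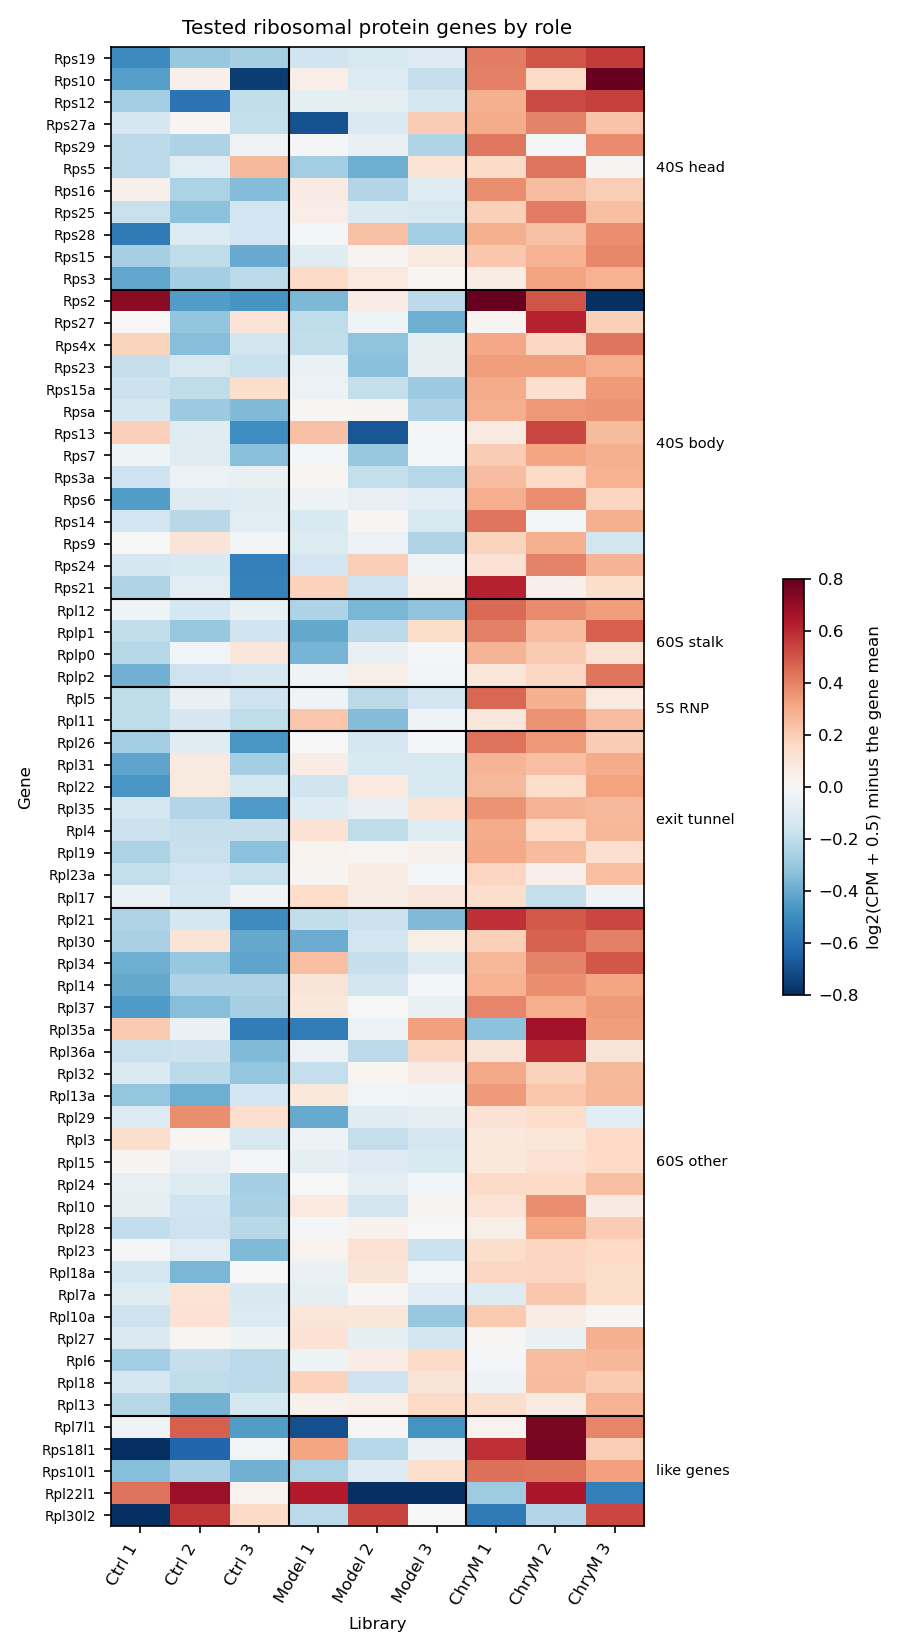
Colour gives log2(CPM + 0.5) minus the gene's mean over the 9 libraries (columns) for 67 of the 70 tested members (rows), set apart by role and, within a role, ordered by the fold change of ChryM vs Model. The ChryM columns are red, above the gene's mean, in most rows of both subunits, and the rows of Rps2 and the like-named genes vary widely within a group.

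In the 60S subunit, 15 of 37 tested members rose (median 0.27), against 16 of 28 in the 40S subunit (median 0.37), a difference that was not tested. Of the stalk proteins, which recruit translation factors with GTPase activity, grouped here with Rpl12, 3 of 4 rose. Rplp1 stood at 112, 129 and 166 CPM in Model and 198, 177 and 208 in ChryM (0.50 ± 0.12, adjusted p = 0.00163, and 0.0588 without Model 1), with no overlap. Rplp0, the base of the stalk, rose by 0.34 ± 0.11 (adjusted p = 0.0427), from 136, 169 and 175 to 213, 203 and 192 CPM, and lost the call without Model 1 (adjusted p = 0.314). Rplp2 did not pass, although its ChryM libraries (194, 203 and 244 CPM) lay above its Model libraries (177, 187 and 179 CPM; 0.24, adjusted p = 0.2).

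Rpl5 and Rpl11 form the 5S RNP, the particle of 5S rRNA that, when unassembled, binds Mdm2 and thereby stabilises p53. Rpl5 rose from 282, 247 and 258 CPM in Model to 395, 349 and 302 in ChryM (0.42 ± 0.10, adjusted p = 0.00103). Rpl11 stood at 182, 123 and 152 CPM in Model and 166, 200 and 185 in ChryM, with overlapping groups (0.27, adjusted p = 0.16). Around the exit tunnel 4 of 8 rose (median 0.30). Rpl26 was the strongest by p, from 438, 401 and 434 CPM to 595, 560 and 506 (0.39 ± 0.09, adjusted p = 0.000498). Rpl35 stood at 437, 449 and 506 CPM in Model and 601, 566 and 561 in ChryM, again without overlap (0.31 ± 0.08, adjusted p = 0.00672, and 0.0671 without Model 1). Rpl31 rose by 0.33 and Rpl4 by 0.30, whereas Rpl19, Rpl22, Rpl23a and Rpl17 ran from -0.12 to 0.31 without a call. Of the remaining 60S proteins 7 of 23 rose (median 0.22), with Rpl21 at the top and Rpl30 (0.51), Rpl34 (0.39), Rpl14 (0.34), Rpl37 (0.33), Rpl32 (0.28) and Rpl13a (0.27) after it. The other 16 ran from 0.08 (Rpl13) to 0.32 (Rpl35a).

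Paralogs with both partners in the table were measured at unequal depth. Rpl22 (36.4, 43.1 and 37.4 CPM in Model, 48.9, 45.2 and 51 in ChryM) and Rpl22l1 (19, 6.63 and 6.68, then 9.78, 19.2 and 8.06) had no call. Rpl7l1 had the highest fold change of all members between ChryM and Model, 0.82 ± 0.39 on the log2 scale, and did not pass (adjusted p = 0.204). Rps4x rose by 0.49 ± 0.14 (adjusted p = 0.0146), from 88.6, 81.2 and 96.2 to 126, 114 and 137 CPM, a call lost with DESeq2 (adjusted p = 0.122). Its Y-named partner Rps4y2 had 6 counts in total. Rpl3 and Rpl10 had no call between ChryM and Model, their partners Rpl3l and Rpl10l held 0 and 15 counts, and Rps27l held 7 against a Rps27 level of 37.4 to 75.7 CPM. The like-named Rps10l1 rose from 112, 124 and 147 to 182, 181 and 168 CPM (0.46, adjusted p = 0.00514, and 0.0734 without Model 1). Only Rpl17 and Rpl30l2 were below 0 among the 70, at -0.12 (adjusted p = 0.663) and -0.17 (adjusted p = 0.862).

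Between Model and Ctrl few members changed. Of 70 tested members 7 rose, against 7.04% of all tested genes, and 1 fell, against 5.39%, with 12.4% of all tested genes called either way. The share that rose was thus near the background. The median log2 fold change was 0.12 and 52 members were above 0, with -0.02 as the median over all tested genes. On library totals without a scaling factor the median was -0.00487, so its direction depended on the scaling. All 3 Model libraries lay above all 3 Ctrl libraries for 20 members (28.6%), against 13.8% of all tested genes, and below for 3, against 12.5%. DESeq2 called 3 higher and 0 lower, and leaving out Ctrl 1, Model 1, Model 2 or Model 3 left 2, 2, 3 and 1 higher. None of the 8 calls held under all 19 alternatives.

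The 7 were Rpl13, Rpl37, Rpl19, Rpl13a, Rps3, Rps15 and Rpl35. Rpl13 went from 476, 428 and 504 CPM in Ctrl to 569, 575 and 620 in Model (0.32 ± 0.08, adjusted p = 0.0027), and ChryM was close to Model at 612, 583 and 673 CPM (0.08, adjusted p = 0.662). Rps3 had a similar order, with 112, 123 and 128 CPM in Ctrl and 166, 158 and 151 in Model (0.38 ± 0.12, adjusted p = 0.0282). Rpl37 stepped up in both comparisons, from 222, 241 and 253 CPM in Ctrl to 324, 303 and 293 in Model and 400, 373 and 386 in ChryM. Its log2 fold changes were 0.36 ± 0.10 (adjusted p = 0.00591) for Model vs Ctrl and 0.33 ± 0.09 (adjusted p = 0.00749, and 0.0713 without Model 3) for ChryM vs Model, comparisons that share the Model libraries. Rpl13a, Rps15 and Rpl35 were also called in both. The member that fell was Rpl29, from 173, 242 and 205 CPM to 141, 174 and 176 (-0.34 ± 0.11, adjusted p = 0.0326). Its groups overlapped, and the call was lost without Ctrl 2 (adjusted p = 0.404). In RefSeq, the spans of Rpl29, Rpl19 and Rpl35 overlap those of other genes, with strand not compared. The span listed for Rpl29 overlaps many genes although its deposited length is 1070 bases, so it may not be the extent of that gene.

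Between ChryM and Ctrl, 46 of 70 tested members rose and none fell, 65.7%, against 9.83% of all tested genes that rose, 8.96% that fell and 18.8% that did either. The median log2 fold change was 0.42 (1.335-fold), the range -0.37 to 1.05, and 67 were above 0, with -0.00962 as the median over all tested genes. All ChryM libraries lay above all Ctrl libraries for 51 members (72.9%), against 16.3% of all tested genes. This comparison shares its ChryM libraries with that of ChryM and Model, and 30 members were called higher in both. By role, 10 of 12 tested proteins of the 40S head, 10 of 16 of the 40S body, 3 of 4 of the stalk, both of the 5S RNP and 6 of 8 around the exit tunnel rose, as did 13 of the other 23 60S proteins.

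Rps19 had a log2 fold change of 0.85 (adjusted p = 1.63e-12), Rpl21 of 0.81 (adjusted p = 1.09e-12), Rps12 of 0.80 (adjusted p = 2.4e-08) and Rpl37 of 0.69 (adjusted p = 2.08e-10). For all 4 the groups did not overlap. The largest was Rps18l1, with 15.3, 18.6 and 28.7 CPM in Ctrl and 44, 49.7 and 33.6 in ChryM (1.05 ± 0.25, adjusted p = 0.000431). Rplp2 and Rpl11, which were not called against Model, rose against Ctrl by 0.45 (adjusted p = 0.000674) and 0.41 (adjusted p = 0.00425), and Rplp0 did the reverse, with 0.25 against Ctrl (adjusted p = 0.0887). In the other direction, Rpl22l1 was at -0.37 (adjusted p = 0.525) and Rpl29 at -0.09 (adjusted p = 0.623).

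**Figure D4:**
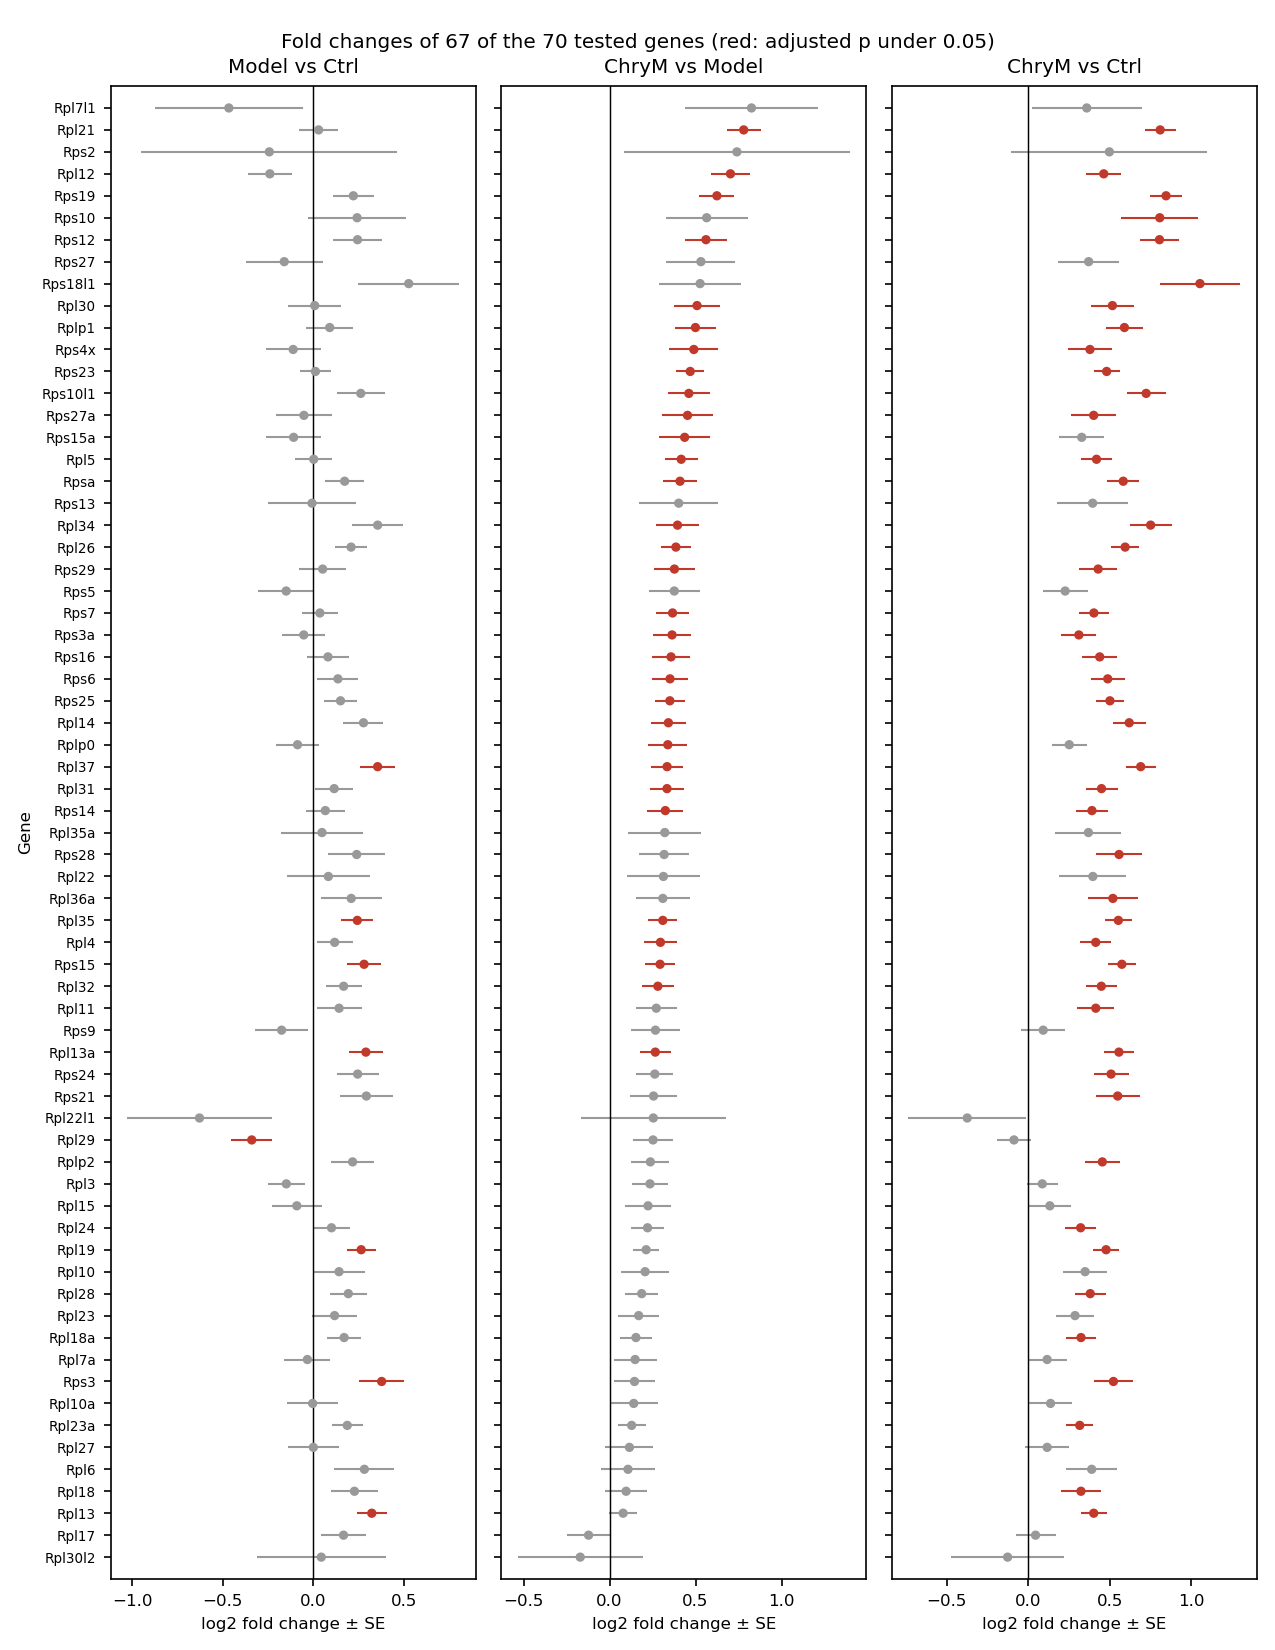
Log2 fold change with SE of 67 of the 70 tested members in the 3 comparisons, ordered by ChryM vs Model; red points passed an adjusted p under 0.05. Red points lie between 0.27 (Rpl13a) and 0.78 (Rpl21) in ChryM vs Model, and Rpl29 in Model vs Ctrl is the only red point below 0.

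Start sequence, length and neighbouring genes were set beside the calls. With a TOP tract at the annotated start, 11 of 20 tested members rose between ChryM and Model (median 0.32), and without it 15 of 36 (median 0.31). Of all tested genes 3.86% rose in that comparison. Some members counted as without a tract, such as Rps23 and Rpl12, begin with an unbroken pyrimidine run whose annotated first base is T. The split is thus partly one by annotated base. Members are short, with a median gene length of 1104.5 bases against 3306 over all tested genes, and 53 of them lay among the 1415 shortest of 5 equal length classes. The non-members of that class had a median log2 fold change of 0.01 in ChryM vs Model, with 3.45% higher, and 0.08 in Model vs Ctrl, with 11.6% higher. In ChryM vs Ctrl their median was 0.12, with 13.2% higher and 4.7% lower. Of the 70, 11 overlap another RefSeq gene by span, with strand not compared, among them Rps23, Rps6 and Rpl31. Among the other 59, 5 rose in Model vs Ctrl, 26 in ChryM vs Model and 37 in ChryM vs Ctrl. Over all tested genes 7.04%, 3.86% and 9.83% rose in these comparisons, so the 5 of Model vs Ctrl were near the background share. Of 28 members whose locus holds an annotated snoRNA, 13 rose between ChryM and Model, as did 19 of the 42 without, against the same 3.86%.

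Some IDs with a -ps name, left out by the rule, were called as well. Of 70 such IDs, 10 were tested and 33 had 0 counts, and 4 of the 10 rose between ChryM and Model with none lower, against 3.86% of all tested genes that rose. These were Rps20-ps10 (0.54, adjusted p = 0.00162), Rpl38-ps9 (0.51, adjusted p = 0.00487), Rpl9-ps30 (0.43, adjusted p = 0.00602) and Rpl39-ps13 (0.87, adjusted p = 0.00839). Rpl39-ps13 had fallen in Model vs Ctrl (-0.75, adjusted p = 0.0267), and in ChryM vs Ctrl it was at 0.12 (adjusted p = 0.726). Rps20-ps10 stood at 120, 126 and 86.8 CPM in Model and 167, 157 and 154 in ChryM, without overlap.

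Lists of related genes were read against the same shares of all tested genes, which were 7.04% higher and 5.39% lower in Model vs Ctrl, 3.86% and 4.41% in ChryM vs Model, and 9.83% and 8.96% in ChryM vs Ctrl. Of 17 tested genes in a list of other TOP mRNAs, 1 rose and none fell between ChryM and Model (median 0.11), namely Tpt1 (0.27, adjusted p = 0.0422). Between Model and Ctrl none rose and 3 fell (median -0.07): Eef1a1, the elongation factor that delivers aminoacyl-tRNA (-0.27, adjusted p = 0.0112), Hnrnpa1 (-0.50, adjusted p = 0.00659) and Nap1l1 (-0.83, adjusted p = 0.00299). Between ChryM and Ctrl none rose and 3 fell (median -0.03). Among 42 ribosome assembly factors, 1 rose and 2 fell in Model vs Ctrl, 1 rose and 1 fell in ChryM vs Model (median 0.07), and 2 rose and 3 fell in ChryM vs Ctrl. The one that fell between ChryM and Model was Tsr1, of 40S maturation (-0.43, adjusted p = 0.00181). Of 5 tested genes in a list of RNA polymerase I subunits and their transcription factors, none was called in any comparison. Of 12 tested genes of mTORC1, the S6 kinases and LARP1, none was called in Model vs Ctrl, 1 rose in ChryM vs Model, Rps6kb2 (0.97 ± 0.30, adjusted p = 0.0183), and 2 rose and 1 fell in ChryM vs Ctrl. Of 53 tested mitochondrial ribosomal proteins, 3 rose in Model vs Ctrl (median 0.13), led by Mrpl16 (0.55, adjusted p = 1.52e-06), none was called in ChryM vs Model (median 0.04) and 7 rose in ChryM vs Ctrl (median 0.20), with none lower in any of the 3.

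**Figure D5:**
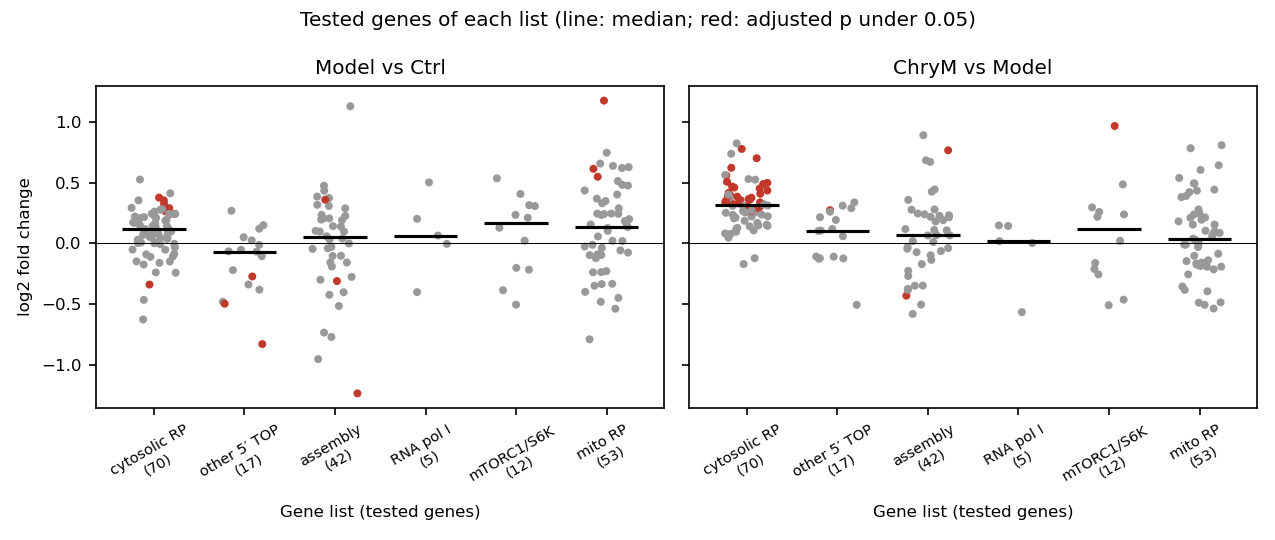
Log2 fold change of each tested gene (points) in the cytosolic ribosomal protein set and the 5 lists of related genes, in Model vs Ctrl and ChryM vs Model; lines are medians and red points passed an adjusted p under 0.05. In ChryM vs Model the line of the cytosolic set is at 0.32 with 32 red points, and that of the mitochondrial set is at 0.04 with none.

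Cell type markers moved with the groups as well. Summed oligodendrocyte markers ran from 15540 to 16660 CPM in Ctrl, 8508 to 9422 in Model and 15070 to 16480 in ChryM. All 10 fell between Model and Ctrl, against 5.39% of all tested genes, and 7 of 10 rose between ChryM and Model, against 3.86%. Between ChryM and Ctrl 1 of the 10 rose and 5 fell (median log2 fold change -0.34), against 9.83% and 8.96% of all tested genes. Summed markers of oligodendrocyte precursors ran from 237.9 to 257.6 CPM in Ctrl, 158.4 to 166.6 in Model and 176.3 to 195.1 in ChryM. Neuronal markers were 2744 to 3104 CPM in Ctrl, 2828 to 2951 in Model and 2494 to 2634 in ChryM, and astrocyte markers 1524 to 1778, 1442 to 1509 and 1394 to 1419. Microglial markers ran from 227.9 to 250.4, 223.4 to 280.1 and 176.3 to 203.2 CPM in the same order, and endothelial markers from 52.26 to 71.83, 45.43 to 47.88 and 23.27 to 34.64. No marker in the table was at 0 in all libraries. The share of counts from the 13 mitochondrially encoded genes was 6.818% to 8.465% over the 9 libraries. The part of these differences in the changes of the members was not tested.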

How the data were processed

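The authors deposited whole-number counts per gene and a table of FPKM with gene lengths, per the file headers. The submitters' processing notes name HISAT2 and DESeq2. Libraries were dUTP strand-specific, per the labels. For the counter, strand setting, genome build and annotation, nothing is given in the sources used here. Each deposited FPKM value equalled count over length and total to a relative 5.15e-15. Genes passing filterByExpr were TMM-scaled (0.9557 to 1.065) and fitted over all 9 libraries in edgeR 4.0.16 (robust quasi-likelihood, 6 residual degrees of freedom, R 4.3.3). The fit was also run on simulated counts with the same spread for every gene, which cannot show how it does where the spread differs between genes. Tests were two-sided, with Benjamini-Hochberg adjustment over 7073 genes and calls at 0.05. The printed SE is the larger of the test's and the counting error. CPM of single genes are TMM-scaled, and sums over genes are per library total. Alternatives included DESeq2 1.42.0, limma 3.58.1 on log2 FPKM, other scalings and filters, and leaving out each library.

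Named members are the 8 of smallest p per comparison, any lower at an unadjusted p under 0.05, the 5 highest and 5 lowest by FPKM, some well-studied members and paralog pairs, with up to 4 genes of smallest p per related list. Rps2, the -ps IDs and other members listed to complete a group were named after their values were seen. The members and lists were chosen with earlier results of these data known. A few genes are held back for evaluation and get no values of their own, although counts and medians include them.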

Additional observations from a re-analysis of the deposited data

How the results depend on the processing

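Between Model and Ctrl, where 7 members were higher and 1 lower, the higher count was 1 on library totals, 3 with DESeq2, 4 without a count filter, 2 at a mean count of at least 30 and 1 on both log2(FPKM + 1) and log2(FPKM + 0.1). The lower count was 2 on library totals, at a mean count of at least 30 and on log2(FPKM + 1), and 0 with DESeq2 and without a count filter. Leaving out 1 library gave 1 to 7 higher and 0 to 1 lower: 2 higher without Ctrl 1 or Model 1, 3 without Model 2, 1 without Model 3, and 0 lower without Ctrl 2 or Model 1. The median log2 fold change of 0.117 became -0.00487 on library totals, 0.143 with DESeq2, 0.0431 at a mean count of at least 30, 0.015 on log2(FPKM + 1) and 0.0163 on log2(FPKM + 0.1), and 0.104 to 0.141 with 1 library left out. Between ChryM and Model, the 32 members higher became 14 with DESeq2, 21 without a count filter and 15 to 33 with 1 library left out. The median of 0.319 became 0.374 on library totals, 0.367 on log2(FPKM + 1), 0.371 on log2(FPKM + 0.1) and 0.293 to 0.326 with 1 library left out. Between ChryM and Ctrl, the 46 higher stayed within 1.5 times under every alternative run. They became 33 on both log2(FPKM + 1) and log2(FPKM + 0.1), 40 with DESeq2 and 42 to 45 with 1 library left out. The median of 0.416 became 0.351 on library totals, 0.445 without a count filter, 0.358 at a mean count of at least 30, 0.349 on log2(FPKM + 1), 0.356 on log2(FPKM + 0.1) and 0.403 to 0.441 with 1 library left out. No member was lower in the 2 ChryM comparisons under any alternative run. The cause of these shifts was not tested.

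With the replicate block, 7 members were higher and 1 lower in Model vs Ctrl, 32 were higher in ChryM vs Model and 46 in ChryM vs Ctrl, with medians of 0.119, 0.314 and 0.416. Each library's log2 CPM minus its group's mean was correlated between groups over the tested genes. The 9 same-numbered pairs gave -0.0304 to 0.0421, against -0.0425 to 0.0629 for the 18 other pairs, and none was over 0.1. In libraries this shallow, counting noise can hide a shared animal, litter or day. The correlations therefore do not settle whether the replicate numbers pair the libraries. Over the 19 alternatives, 0 of 8 calls of Model vs Ctrl, 8 of 32 of ChryM vs Model (among them Rpl21, Rpl12, Rps19, Rps23, Rps12, Rpl26 and Rpl5) and 30 of 46 of ChryM vs Ctrl held wherever the gene was tested. The 18 members with 48 or fewer counts in total were not tested, and members of few counts such as Rpl7l1 have errors as large as most of the changes reported here.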

Other observations

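Of the 70 tested members, 21 had no call in any of the 3 comparisons, and the following were picked from them after their values were seen. Rpl27 stood at 99.8, 109 and 105 CPM in Ctrl, 117, 103 and 97.5 in Model and 109, 104 and 132 in ChryM. Rpl17 stood at 130, 123 and 133 CPM in Ctrl, 150, 141 and 144 in Model and 149, 119 and 133 in ChryM, so its ChryM libraries overlapped both other groups. Rps9 stood at 102, 110 and 101 CPM in Ctrl, 94.9, 99.5 and 86.8 in Model and 116, 125 and 92.7 in ChryM. For these 3 genes the adjusted p of ChryM vs Model was 0.731, 0.663 and 0.301, which does not show that they stayed the same.

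Rps2 varied widely within groups, with 97.5, 43 and 42.4 CPM in Ctrl, 45.9, 61.3 and 50.8 in Model and 148, 83.6 and 26.9 in ChryM. These rest on 83, 37 and 31, 29, 37 and 38, and 121, 74 and 20 counts.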
